A study of Mus musculus with 8 samples.

Results

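The genes described here are 9 genes of the tight junction, chosen by name from the 24421 gene symbols of the count tables: the claudins Cldn3, Cldn4, Cldn6, Cldn7 and Cldn9, the scaffold genes Tjp1 and Tjp3, the occludin gene Ocln, and F11r, which encodes junctional adhesion molecule A. They were followed in R1 mouse embryonic stem cells, a single pluripotent line, in both differentiation states and with both nanopore kits. Undiff cells had been grown for 4 days in mES medium. They are described as embryoid bodies in the sample labels and as maintained stem cells in the study's methods. Day4 cells were embryoid bodies that had been kept in non-adherent dishes without LIF and then given retinoic acid (RA), which drives differentiation, for a further 4 days. The RA dose is 2 µM in the design text and methods and 2 mM in the treatment label. The 2 replicates of a group were grown separately, per the study's methods. Polyadenylated RNA was read either directly (ONT Direct RNA) or after conversion to cDNA and PCR (ONT cDNA), which gave 8 libraries in 4 groups of 2. Per the study, RNA from the duplicate samples of each state was used with both kits. Agreement between the kits is thus not replication in further cultures.

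Tight junctions close the space between neighbouring epithelial cells. Claudins are small membrane proteins whose extracellular loops pair across that space and set which ions pass, and they vary more from tissue to tissue than the other parts. Occludin and the junctional adhesion molecules are further membrane components, while the zonula occludens scaffolds encoded by the Tjp genes tie them to actin. Naive mouse stem cells hold epithelial features, E-cadherin among them, and Cldn6 is known from early embryonic epithelia.

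F11r rose on both platforms, by 1.09 ± 0.38 (SE) on the log2 scale in Direct RNA and by 1.38 ± 0.42 in cDNA, and reached the highest level of the 9 genes at Day4. Cldn4 fell by 1.53 ± 0.53 in Direct RNA, and its estimate in cDNA, -1.28 ± 0.57, did not pass the threshold. No other tight junction gene of the 9 was a differentially expressed gene (DEG) on either platform. The DEGs were thus 2 of 7 genes with enough reads in Direct RNA and 1 of 6 in cDNA, beside 17.2% and 17.9% of all tested genes that were called. Between the kits, Cldn3, Tjp1 and Tjp3 were read less, and Cldn7 more, in cDNA, 4 of 7 genes where 51.3% of all tested genes were called.

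The 5 claudins are close relatives, and the depth and platform values below rest on reads being given to the right one. A stretch of coding sequence from each is shown because it spans the family signature in the first extracellular loop. The bases come from GENCODE vM21 transcripts (GRCm38, the mm10 build), 5′ to 3′ on the coding strand. Capitals mark the 18 bases for the signature of glycine, leucine, tryptophan, any 2 residues and cysteine.
Cldn3, chr5:134986568-134986621, plus strand: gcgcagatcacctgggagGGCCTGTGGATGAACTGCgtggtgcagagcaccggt
Cldn4, chr5:134946566-134946619, minus strand: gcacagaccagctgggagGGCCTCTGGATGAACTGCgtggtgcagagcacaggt
Cldn6, chr17:23681190-23681243, plus strand: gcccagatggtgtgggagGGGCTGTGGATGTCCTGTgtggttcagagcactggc
Cldn7, chr11:69966053-69966106, plus strand: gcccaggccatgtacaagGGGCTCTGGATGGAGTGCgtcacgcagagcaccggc
Cldn9, chr17:23683470-23683523, minus strand: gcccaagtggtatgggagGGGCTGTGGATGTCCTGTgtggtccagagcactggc
Across these 54 bases Cldn9 differed from Cldn6 at 4 positions, none of them in capitals, whereas Cldn3 differed from Cldn6 at 12, Cldn4 at 14 and Cldn7 at 17. Over the whole coding sequence, Cldn6 and Cldn9 were 75.9% identical and Cldn3 and Cldn4 73.5%, the most alike of the 10 pairs. Cldn7 stood farthest from the others, at 60.4% to 64.2%. Reads that fit a wrong family member equally well could not be told from these files.

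The genes sit in several places of the genome. Cldn3 (chr5:134986214-134987472, plus strand) and Cldn4 (chr5:134945119-134946934, minus strand) each have 1 exon and lie on the same stretch of the chromosome. Cldn6 (chr17:23679249-23682446, plus strand, 3 exons) and Cldn9 (chr17:23682584-23684026, minus strand, 1 exon) end towards each other without overlapping. Cldn7 (chr11:69964779-69967885, plus strand) has 4 exons. Tjp1 (chr7:65296165-65527781, minus strand, 28 exons) is the longest, with a transcript of 7049 bases. Tjp3 (chr10:81273207-81291581, minus strand), Ocln (chr13:100496507-100552718, minus strand) and F11r (chr1:171437535-171464603, plus strand) have longest transcripts of 3024, 4052 and 2518 bases. The claudin transcripts are short, from 1259 bases for Cldn3 to 1816 for Cldn4. Only Cldn3 and Tjp3 share exon bases with a gene on the other strand. Each shares 40 bases at its 3′ end, Cldn3 with Wbscr25 and Tjp3 with Apba3.

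Depth differed between kits and limits the rare genes. Direct RNA libraries held 283461 to 907489 reads on genes and cDNA libraries 948657 to 2088592, so that 3 reads, taken as the floor of detection, stood for 3.31 to 10.6 CPM (reads per 1000000 reads on genes) in Direct RNA and 1.44 to 3.16 CPM in cDNA. The 9 genes together had 146 to 482 reads per Direct RNA library and 332 to 1107 per cDNA library. Markers separated the states as labelled: the summed level of 8 pluripotency genes was 11387 to 13379 CPM in Direct RNA Undiff and 134 to 559.9 CPM at Day4, and 20815 to 23510 against 83.4 to 920.4 CPM in cDNA. The Day4 replicates were not equal in this respect. Replicate 1 was the lower one for all 8 pluripotency genes on both platforms, at sums of 134 against 559.9 CPM in Direct RNA and 83.4 against 920.4 CPM in cDNA. In RNA from whole cultures, fewer cells of a type and less RNA per cell cannot be told apart.

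**Figure D1:**
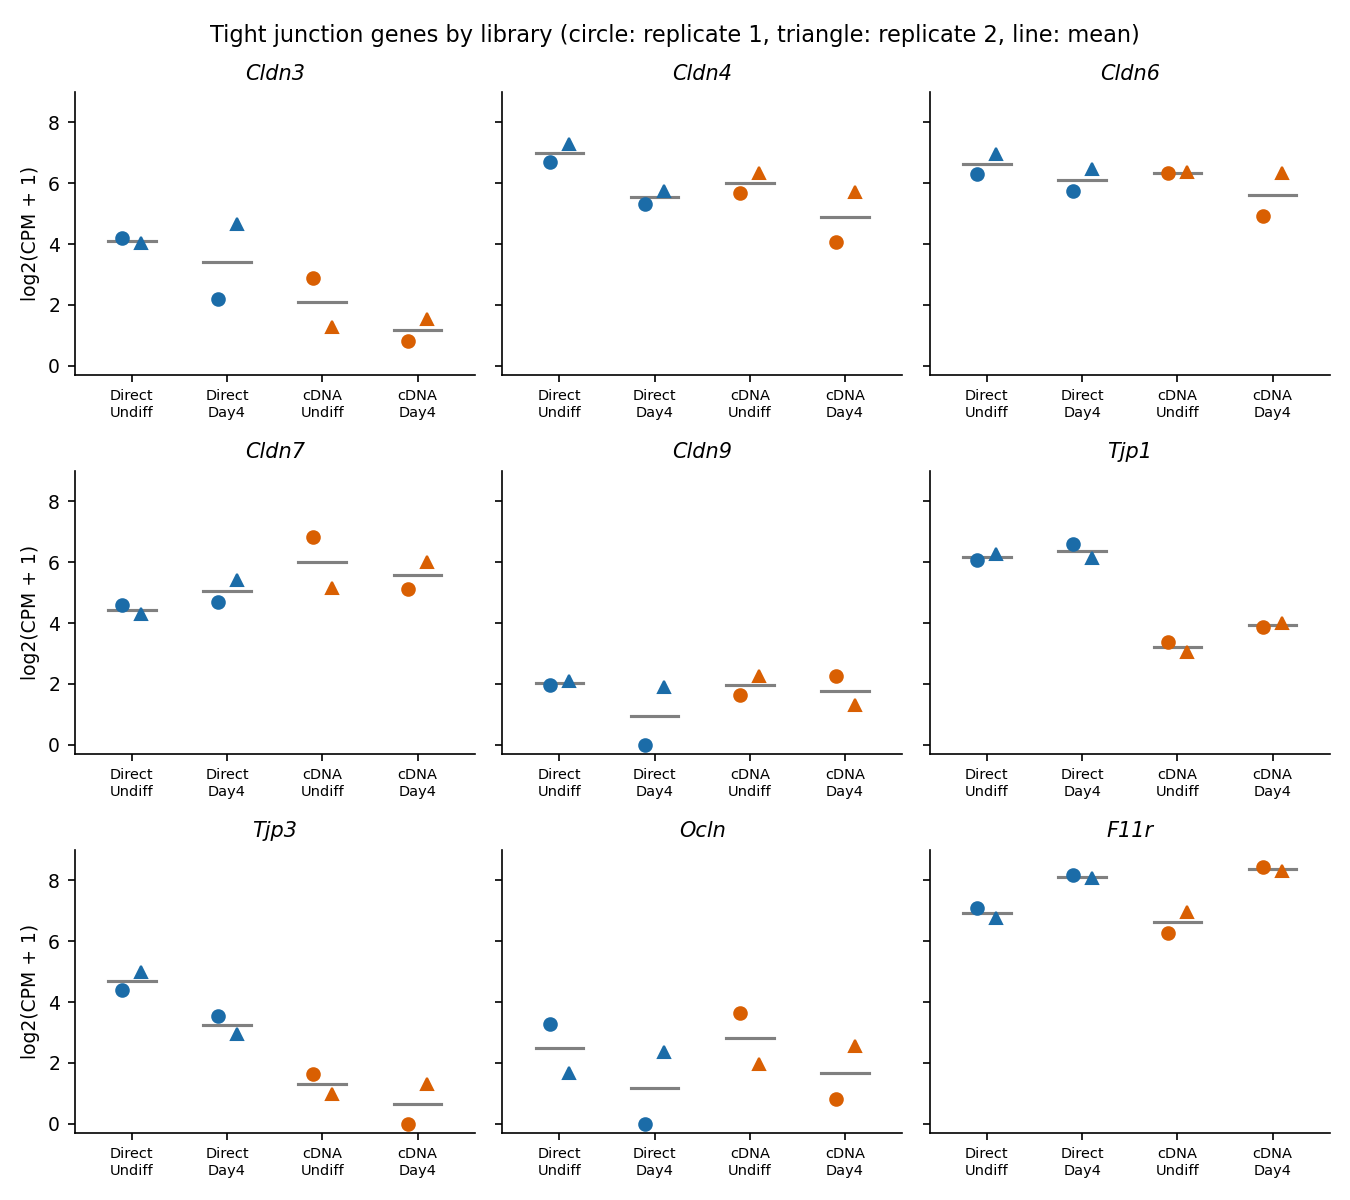
Level of each of the 9 tight junction genes as log2(CPM + 1) in the 8 libraries, by platform and state; circles are replicate 1, triangles replicate 2 and grey lines the mean of the 2 plotted values. F11r is the only gene with both Day4 points above both Undiff points on both platforms, and the points of Cldn3, Tjp1 and Tjp3 are lower in cDNA than in Direct RNA within each state.

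F11r, the adhesion molecule, had the most reads at Day4 in each library, while in Direct RNA Undiff Cldn4 had 176 reads over both replicates against 144 of F11r. In Direct RNA its level was 135 and 107 CPM in the Undiff replicates and 289 and 267 CPM at Day4. In cDNA it was 77.0 and 123.5 CPM in Undiff and 346 and 314 CPM at Day4. Both Day4 libraries exceeded both Undiff libraries on each platform, and the Day4 replicates of a platform lay close together. The change was 2.13-fold in Direct RNA (adjusted p = 0.0370, DESeq2) and 2.61-fold in cDNA (adjusted p = 0.0116), which made F11r one of the 9.54% of tested genes that were called higher in Direct RNA and of the 8.69% in cDNA. Among the reads of the 9 genes, the share of F11r was 29.7% and 20.1% in Direct RNA Undiff and 56.2% and 48.0% at Day4, and 22.0% and 36.6% against 77.8% and 59.0% in cDNA. Leaving out any 1 library ended the call on both platforms, with log2 changes of 0.91 to 1.11 in Direct RNA and 1.07 to 1.64 in cDNA.

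Cldn4, a claudin of tight epithelia, stood at 103 and 154 CPM in Direct RNA Undiff and at 38.8 and 52.9 CPM at Day4, with no overlap of the groups. In cDNA it stood at 50.6 and 80.4 CPM in Undiff and at 15.9 and 51.0 CPM at Day4, so that the second Day4 replicate reached just past the lower Undiff library. The fall of 2.89-fold in Direct RNA passed the test (adjusted p = 0.0359, DESeq2), as for 7.67% of tested genes that were called lower. In cDNA, where 9.24% were called lower, the estimate had a 95% interval from -2.40 to -0.16 but an adjusted p of 0.152. The quasi-likelihood test of edgeR called Cldn4 lower on both platforms (adjusted p = 0.000510 in Direct RNA and 0.0262 in cDNA), whereas leaving out any 1 library ended the Direct RNA call, at log2 changes between -1.84 and -1.14.

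Cldn6, the claudin of early embryonic epithelium, was the best-read claudin besides Cldn4 in Direct RNA. Its levels were 77.5 and 123 CPM in Direct RNA Undiff against 52.9 and 86.8 CPM at Day4, where the groups overlapped. In cDNA they were 79.1 and 82.4 CPM in Undiff and 29.6 and 78.9 CPM at Day4, so that 1 Day4 library was far below Undiff and the other almost level with it. The log2 changes of -0.60 ± 0.53 and -0.91 ± 0.52 did not pass (adjusted p = 0.653 and 0.326, DESeq2). Their 95% intervals, from -1.64 to 0.45 and from -1.92 to 0.11, include both no change and a fall of more than 2-fold.

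Cldn7, which many simple epithelia express, moved in different directions on the kits without passing on either. In Direct RNA the Undiff libraries had 23.0 and 18.7 CPM and the Day4 libraries 24.7 and 42.0 CPM, from 7 to 31 reads each. In cDNA the Undiff replicates differed widely, at 112 and 35.0 CPM, and the Day4 replicates at 34.1 and 64.0 CPM fell on both sides of the lower one. The estimates were 0.58 ± 0.80 in Direct RNA and -0.91 ± 0.59 in cDNA, and the test of their difference gave -1.65 ± 0.97 (unadjusted p = 0.0876, adjusted p = 0.9999, DESeq2). Without the first Undiff replicate, the cDNA estimate was 0.13.

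The remaining claudins were rare. Cldn3, a sealing claudin, had 6 and 14 reads in Direct RNA Undiff and 1 and 18 at Day4, and no more than 6 reads in any cDNA library. Its Direct RNA Day4 replicates, at 3.53 and 24.4 CPM, lay on either side of the Undiff values of 17.2 and 15.4 CPM. Cldn9 had at most 8 reads in a library and none in the first Direct RNA Day4 library, which allows up to 10.6 CPM there. Neither gene was called, and the 95% interval of each change ran from beyond -2 to beyond 1 on the log2 scale on both platforms.

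The scaffold gene Tjp1 was not called between states on either platform. Direct RNA gave 66.0 and 76.0 CPM in Undiff and 95.3 and 69.1 CPM at Day4 (log2 change 0.07 ± 0.53, adjusted p = 0.971, DESeq2). In cDNA it was read at 9.49 and 7.18 CPM in Undiff and at 13.7 and 14.9 CPM at Day4, where the groups did not overlap but the test did not pass (0.43 ± 0.80, adjusted p = 0.921). Tjp3, the scaffold mainly of epithelial cells, had 20.1 and 30.9 CPM in Direct RNA Undiff and 10.6 and 6.78 CPM at Day4. Its groups did not overlap, and the estimate of -1.52 ± 0.96 did not pass with DESeq2 (adjusted p = 0.409) but did with edgeR (adjusted p = 0.0251, log2 change -1.82). No cDNA library held more than 3 reads of Tjp3, so its change there was not detectable at this depth.

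Ocln, encoding occludin, had at most 11 reads in a library. Its levels were 8.61 and 2.20 CPM in Direct RNA Undiff, 0 and 4.07 CPM at Day4, 11.6 and 2.87 CPM in cDNA Undiff and 0.759 and 4.81 CPM at Day4. Every group held 1 library with more than 1.5 times the level of the other, and the states overlapped on both platforms. The estimates of -0.75 ± 1.42 and -1.44 ± 1.12 did not pass.

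**Figure D2:**
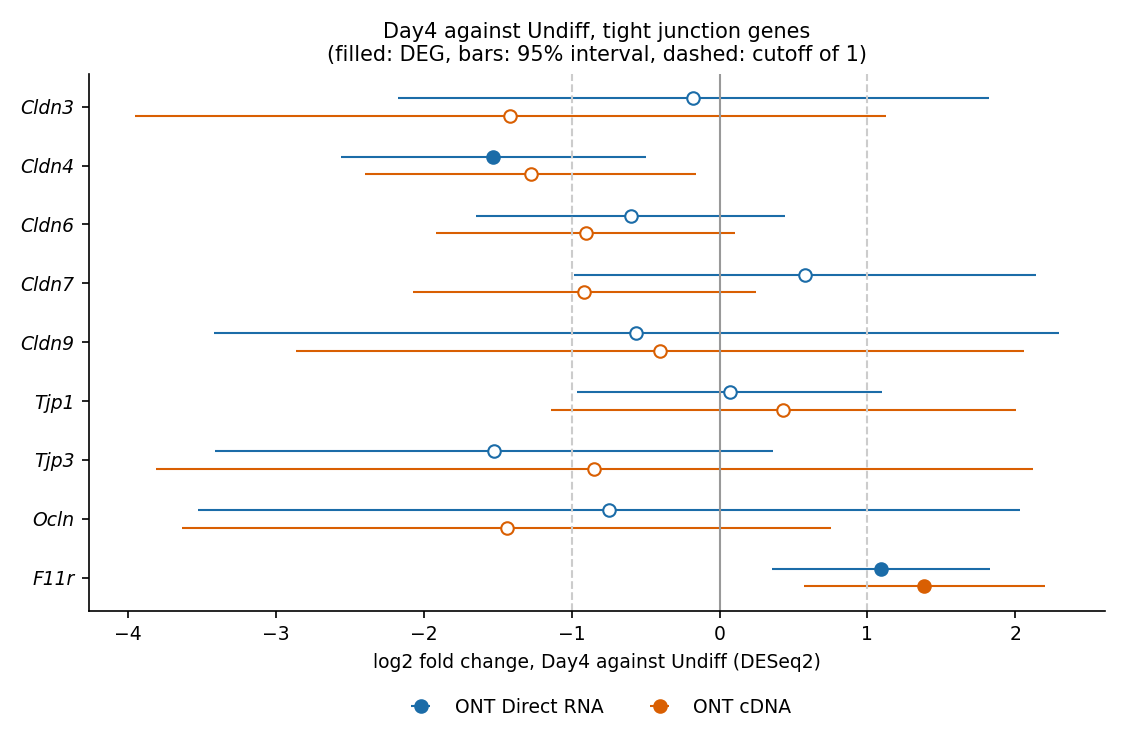
Log2 fold change of Day4 against Undiff from DESeq2 for the 9 genes, with Direct RNA in blue and cDNA in orange; filled points are DEGs, bars are 95% intervals and dashed lines mark a change of 1 in size. Only F11r on both platforms and Cldn4 in Direct RNA are filled, and the widest bars belong to the genes with the fewest reads, Cldn3, Cldn9, Tjp3 and Ocln.

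As a set, 7 of the 9 genes reached a mean of 5 normalised reads in Direct RNA and 6 did in cDNA, the minimum for a DEG. Of these, 1 rose, 1 fell and 5 were not called in Direct RNA, with a median log2 change of -0.18 against 0.03 over all genes tested, of which 9.54% were called higher and 7.67% lower. In cDNA 1 rose and 5 were not called, with a median of -0.91 against 0.00 over all genes, of which 8.69% were called higher and 9.24% lower. With so few genes, these counts do not set the 9 genes apart from that background. The interaction of platform and state, which asks whether a change differed between the kits, was called for none of the 9 genes and for 0.0116% of the 17267 genes fitted. None of the 9 had an unadjusted p under 0.05 in that DESeq2 test either, and edgeR called none. Cldn3, Cldn4, Cldn6, Cldn7 and Ocln were all lower in Day4 replicate 1 than in replicate 2 on both kits, the replicate number that was also lower in pluripotency genes. For Ocln this rests on 0 against 3 reads in Direct RNA and 1 against 10 in cDNA, and for Cldn3 in cDNA on 1 against 4. F11r was higher in replicate 1 on both kits, as were Tjp1 and Tjp3 in Direct RNA and Cldn9 in cDNA. The 5 claudins summed to 120 and 209 CPM in the Day4 replicates of Direct RNA, against 224 and 315 CPM in Undiff, and to 84.2 and 197 CPM against 250 and 203 CPM in cDNA. The part of the pluripotency genes' difference in these values was not tested.

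Levels of different genes were set side by side on 2 scales. A nanopore read stems from 1 molecule and not from a fragment, so that CPM need not grow with transcript length. CPM per kilobase (kb) of the longest annotated transcript are given as the second scale. In Direct RNA Undiff, Cldn4 (129 ± 36.0 CPM, SD, n = 2), F11r (121 ± 19.8 CPM), Cldn6 (100.5 ± 32.5 CPM) and Tjp1 (71.0 ± 7.09 CPM) led, with neighbours in this order no farther apart than the larger of their SDs. Tjp3 at 25.5 ± 7.61 CPM was clear of Tjp1 but not of Cldn7 at 20.8 ± 2.99 CPM, and Cldn3 (16.3 ± 1.27 CPM), Ocln (5.41 ± 4.53 CPM) and Cldn9 (3.09 ± 0.308 CPM) followed. Per length, Cldn4 (70.9 ± 19.8 CPM per kb), Cldn6 (61.9 ± 20.02 CPM per kb) and F11r (48.0 ± 7.86 CPM per kb) led again, whereas Tjp1, with the longest transcript, came at 10.1 ± 1.01 CPM per kb after Cldn7 at 15.6 ± 2.24 and Cldn3 at 13.0 ± 1.01. The place of Tjp1 among the 9 genes thus depends on the scale. At Day4 in Direct RNA F11r led with 278 ± 15.7 CPM, clear of Tjp1 at 82.2 ± 18.5 CPM and Cldn6 at 69.8 ± 23.9 CPM, and with 110.5 ± 6.23 CPM per kb against 43.1 ± 14.8 for Cldn6, the next on that scale. In cDNA Undiff F11r (100.2 ± 32.9 CPM), Cldn6 (80.7 ± 2.33 CPM), Cldn7 (73.3 ± 54.3 CPM) and Cldn4 (65.5 ± 21.1 CPM) overlapped in their spreads, and Cldn7 stood first per length, at 54.9 ± 40.7 CPM per kb. At Day4 in cDNA F11r stood at 330.1 ± 22.3 CPM and the next gene, Cldn6, at 54.3 ± 34.9 CPM, and per length at 131 ± 8.87 CPM per kb against 36.8 ± 15.8 for Cldn7. F11r was the first of the 9 genes at Day4 on both scales with either kit.

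The claudin repertoire as a whole changed in composition. The tables list 31 claudin genes, 26 of them besides the 5 followed here. Of these 26, 12 had no read in any library and 23 never had more than 8 reads, which left Cldn5, Cldn11 and Cldn12. In Direct RNA Undiff the 5 claudins took 78 of 83 claudin reads in replicate 1 (94.0%, Wilson 95% interval 86.7% to 97.4%) and 286 of 312 in replicate 2 (91.7%, 88.1% to 94.2%). At Day4 they took 34 of 62 (54.8%, 42.5% to 66.6%) and 154 of 265 (58.1%, 52.1% to 63.9%). In cDNA the shares were 237 of 249 (95.2%, 91.8% to 97.2%) and 424 of 437 (97.0%, 94.98% to 98.3%) in Undiff. At Day4 they were 111 of 234 (47.4%, 41.1% to 53.8%) and 410 of 606 (67.7%, 63.8% to 71.3%). Undiff libraries therefore lay above all Day4 libraries on both kits. These intervals cover counting error only and not the spread between cultures, and in cDNA PCR can also copy 1 molecule into several reads.

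**Figure D3:**
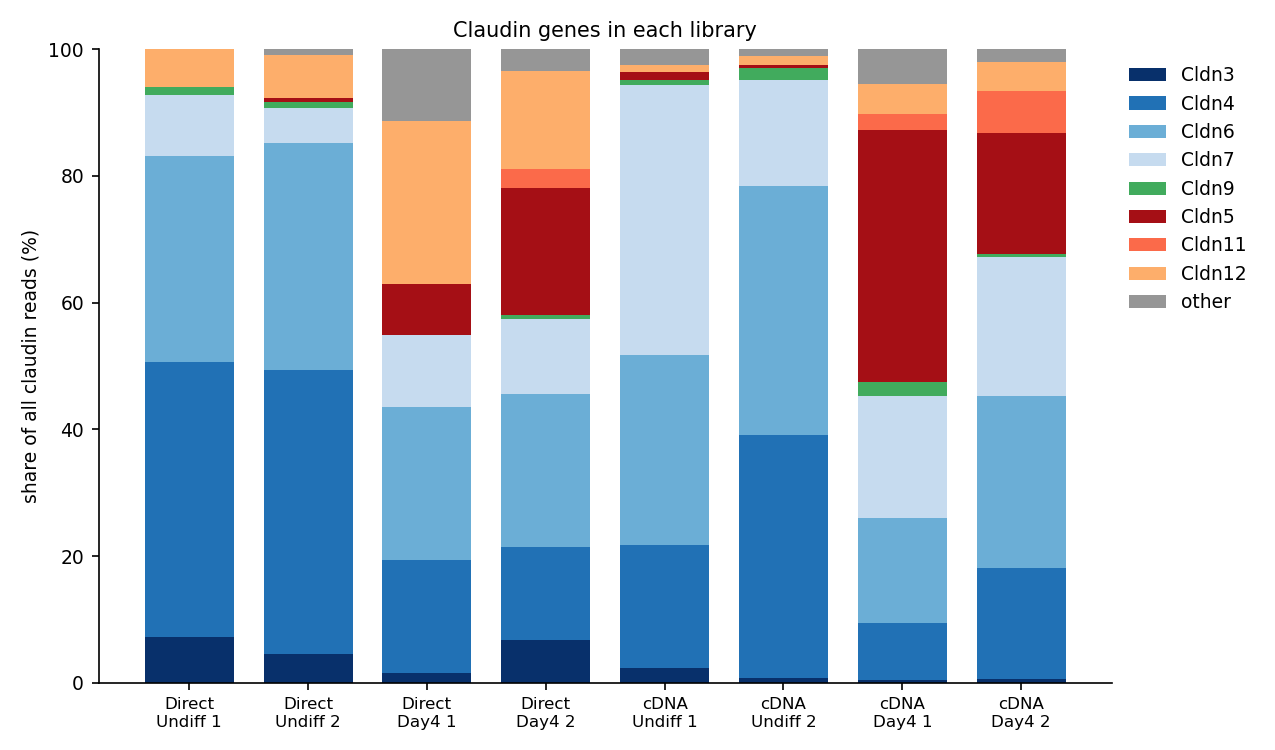
Share of each claudin gene in all claudin reads (%), stacked, in the 8 libraries; blue and green are the 5 claudins followed here, red and orange are Cldn5, Cldn11 and Cldn12, and grey is the sum of the others. The blue and green part is 91.7% or more in each Undiff library and 67.7% or less in each Day4 library, where Cldn5 and Cldn12 fill most of the rest.

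Cldn5, the claudin of endothelium, was the claudin that rose on both platforms. It had 0 and 2 reads in Direct RNA Undiff and 5 and 53 at Day4, and 3 and 2 reads against 93 and 116 in cDNA. The increase was 3.97 ± 1.09 on the log2 scale in Direct RNA (adjusted p = 0.00453, DESeq2) and 4.49 ± 0.78 in cDNA (adjusted p = 6.38e-07). The Direct RNA replicates at Day4 were far apart, at 17.6 and 71.9 CPM, while those of cDNA were at 70.6 and 55.8 CPM. The Direct RNA call was lost without the second Day4 replicate, at a log2 change of 1.94, and without either Undiff replicate, at 3.27 and 3.87. All 7 endothelial markers, Cldn5 included, had reads in every Day4 library, with sums of 148 to 277 CPM in Direct RNA and 148 to 149 CPM in cDNA. In Undiff the sums were 72.7 to 121 CPM and 36.4 to 36.9 CPM, with Cdh5 and Emcn at 0 in all 4 libraries. The part of these cells in the claudin changes was not tested.

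The wider junction was read from 5 further lists with 89 genes, 79 of which had a read in any library. Of these, 51 reached the minimum level on both platforms, and 17 were DEGs on both, 8 higher and 9 lower at Day4 in the same direction with either kit. Among all 8720 genes at that level on both, 6.19% were called higher on both platforms and 5.18% lower. Of the 58 listed genes at the minimum level on either platform, 8 were DEGs on 1 platform, as were 13.5% of all such genes. When each library was left out in turn, the call held throughout for 5 of the 17 genes in Direct RNA (Mpdz, Cdh1, Cdh2, Cdh11 and Twist1) and for 6 in cDNA (Cldn5, Jam2, Cdh1, Cdh11, Epcam and Klf5). Of 24 listed claudins outside the 9 genes, 22 were in the tables, and those at the minimum level were 2 in Direct RNA, of which 1 rose, and 3 in cDNA, of which 2 rose. Among 12 other membrane proteins of the tight junction, 9 reached the minimum level in Direct RNA, of which 3 rose, 2 fell and 4 were not called, where 17.2% of all tested genes were called in either direction. In cDNA 3 of 8 rose and 2 fell, where 17.9% of all were called. The median change of the list was 0.91 in Direct RNA and 0.65 in cDNA, and 0.03 and 0.00 over all genes.

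Of the junctional adhesion molecules related to F11r, Jam2 fell and Jam3 rose on both platforms. Jam2 fell from 138 and 196 CPM in Direct RNA Undiff to 0 and 5.42 CPM at Day4, a log2 change of -5.15 ± 0.77 (adjusted p = 3.10e-09, DESeq2). In cDNA it went from 81.2 and 142 CPM to 4.55 and 6.26 CPM (-4.51 ± 0.57, adjusted p = 7.07e-13). Jam3 rose from 17.2 and 15.4 CPM to 95.3 and 99.0 CPM in Direct RNA (2.36 ± 0.63, adjusted p = 0.00340) and from 10.5 and 17.2 CPM to 83.4 and 99.2 CPM in cDNA (2.29 ± 0.54, adjusted p = 0.000473). Neither gene's states overlapped on either kit. The Direct RNA call of Jam3 was lost without any 1 library and its cDNA call without either Day4 library, and the Direct RNA call of Jam2 was lost without the first Undiff replicate (-4.29, adjusted p = 0.0560).

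The angulins are membrane proteins of the contacts between 3 cells. Of the 3 listed, Ildr1 fell, Ildr2 rose and Lsr was not called, at 0.45 ± 0.55 in Direct RNA and -0.47 ± 0.53 in cDNA. Lsr, named after its values were seen, was read in every library, at 36.1 to 91.7 CPM. Ildr1 went from 8 and 28 reads to 0 and 1 in Direct RNA and from 12 and 23 reads to 0 and 4 in cDNA, with log2 changes of -3.71 ± 1.20 and -3.29 ± 1.07. Its calls were lost without any 1 library, at -3.54 to -2.77 in Direct RNA and -4.01 to -2.31 in cDNA. Ildr2 had no read in any Undiff library and 15 and 7 reads at Day4 in Direct RNA and 14 and 21 in cDNA. Against a floor of 3 reads over the Undiff group, the Day4 level of Ildr2 in Direct RNA was at least 9.02-fold higher, and in cDNA at least 10.4-fold higher. The Direct RNA bound became 3.97-fold without the first Day4 replicate, where the fitted change of Ildr2 was 1.72 and not called, and 22.2-fold without the second. Its Direct RNA call was also lost without the first or the second Undiff replicate, at 4.04 and 3.27. The cDNA bound was 10.2-fold and 10.8-fold without the first and the second Day4 replicate, although the fitted change was not called without any 1 cDNA library.

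Of 23 plaque and polarity genes, which encode the cytoplasmic side of the junction, most were not called. In Direct RNA 1 rose, 3 fell and 18 of 22 at the minimum level were not called, and in cDNA 2 rose, 3 fell and 14 of 19 were not called. Over all tested genes 17.2% and 17.9% were called. The plaque list had a median change of 0.10 with Direct RNA, where that of all genes was 0.03, and of 0.19 with cDNA, where it was 0.00. Mpdz, a scaffold with many PDZ domains, rose by 4.93 ± 0.95 in Direct RNA and 3.41 ± 1.11 in cDNA, from no more than 2 reads in any Undiff library to 26 and 61 reads and 16 and 37 reads at Day4. Prkci, an atypical protein kinase C of the polarity complex, fell, at -1.54 ± 0.53 and -2.02 ± 0.55. Ybx3, a Y-box protein that binds the scaffold of Tjp1, fell too, at -1.28 ± 0.38 and -2.04 ± 0.51. The Day4 libraries lay below the Undiff libraries for both genes on both kits. The cDNA call of Mpdz and the Direct RNA call of Prkci were lost without any 1 library, and the cDNA call of Prkci without the second Undiff (-1.81) or the first Day4 replicate (-1.33). The Direct RNA change of Ybx3 fell short of a call without the second Undiff (-0.72), the first Day4 (-1.50) or the second Day4 replicate (-0.89), and its cDNA call was kept only without the second Undiff replicate.

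The adherens junction lies beneath the tight junction. Of 14 listed genes, 2 rose and 2 fell on each platform, and 9 of 13 in Direct RNA and 8 of 12 in cDNA were not called, against 17.2% and 17.9% of all tested genes called, with medians of -0.28 and -0.11. The called genes were the same on both platforms, Cdh1, Cdh2, Cdh11 and Epcam. Cdh1, encoding E-cadherin, fell from 324 and 183 CPM to 14.1 and 23.0 CPM in Direct RNA (-3.63 ± 0.53, adjusted p = 1.01e-09, DESeq2) and from 123 and 129 CPM to 4.55 and 9.15 CPM in cDNA (-4.37 ± 0.54, adjusted p = 9.04e-14). Epcam, a membrane protein known to bind Cldn7, fell from 247 and 272 CPM to 35.3 and 86.8 CPM in Direct RNA (-2.06 ± 0.46) and from 299 and 213 CPM to 11.4 and 40.4 CPM in cDNA (-3.56 ± 0.52). As with Cldn3, Cldn4, Cldn6, Cldn7 and Ocln, both genes were lower in Day4 replicate 1 than in replicate 2 on both kits. The Direct RNA call of Epcam was lost without the second Undiff replicate (-1.93). Cdh2, encoding N-cadherin, rose by 3.68 ± 0.68 and 3.48 ± 0.82, and its cDNA call was lost without either Day4 replicate (3.24 and 3.19). Cdh11, a cadherin of mesenchyme, had no read in Undiff and 112 and 222 reads in Direct RNA and 48 and 88 reads in cDNA at Day4, at least 137-fold and 40.6-fold higher against the floor.

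Regulators of the epithelial and mesenchymal state formed a list of 16 transcription and splicing factors. In Direct RNA 2 rose, 4 fell and 5 of 11 were not called, and in cDNA 2 rose, 4 fell and 4 of 10 were not called, with medians of -1.77 and -1.93. Over all tested genes 9.54% were called higher and 7.67% lower in Direct RNA, and 8.69% and 9.24% in cDNA. Elf3, Klf4 and Klf5 fell on both platforms, with log2 changes of -2.01 ± 0.69, -3.73 ± 0.75 and -3.94 ± 0.93 in Direct RNA and of -1.91 ± 0.53, -2.44 ± 0.81 and -3.62 ± 0.69 in cDNA. Klf4 and Klf5 also belong to the pluripotency network. Snai2 and Twist1, known as repressors of E-cadherin, rose by 4.11 ± 1.17 and 5.60 ± 0.65 in Direct RNA and by 4.73 ± 1.15 and 4.60 ± 0.80 in cDNA. The Direct RNA calls of Elf3 and Snai2 and the cDNA call of Klf4 were lost without any 1 library. The cDNA call of Elf3 was kept only without the first Undiff replicate. Without the second Undiff or the second Day4 replicate, the cDNA call of Snai2 and the Direct RNA call of Klf5 were lost. The Direct RNA call of Klf4 was lost without the second Undiff replicate, and the cDNA call of Twist1 without the second Day4 replicate.

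**Figure D4:**
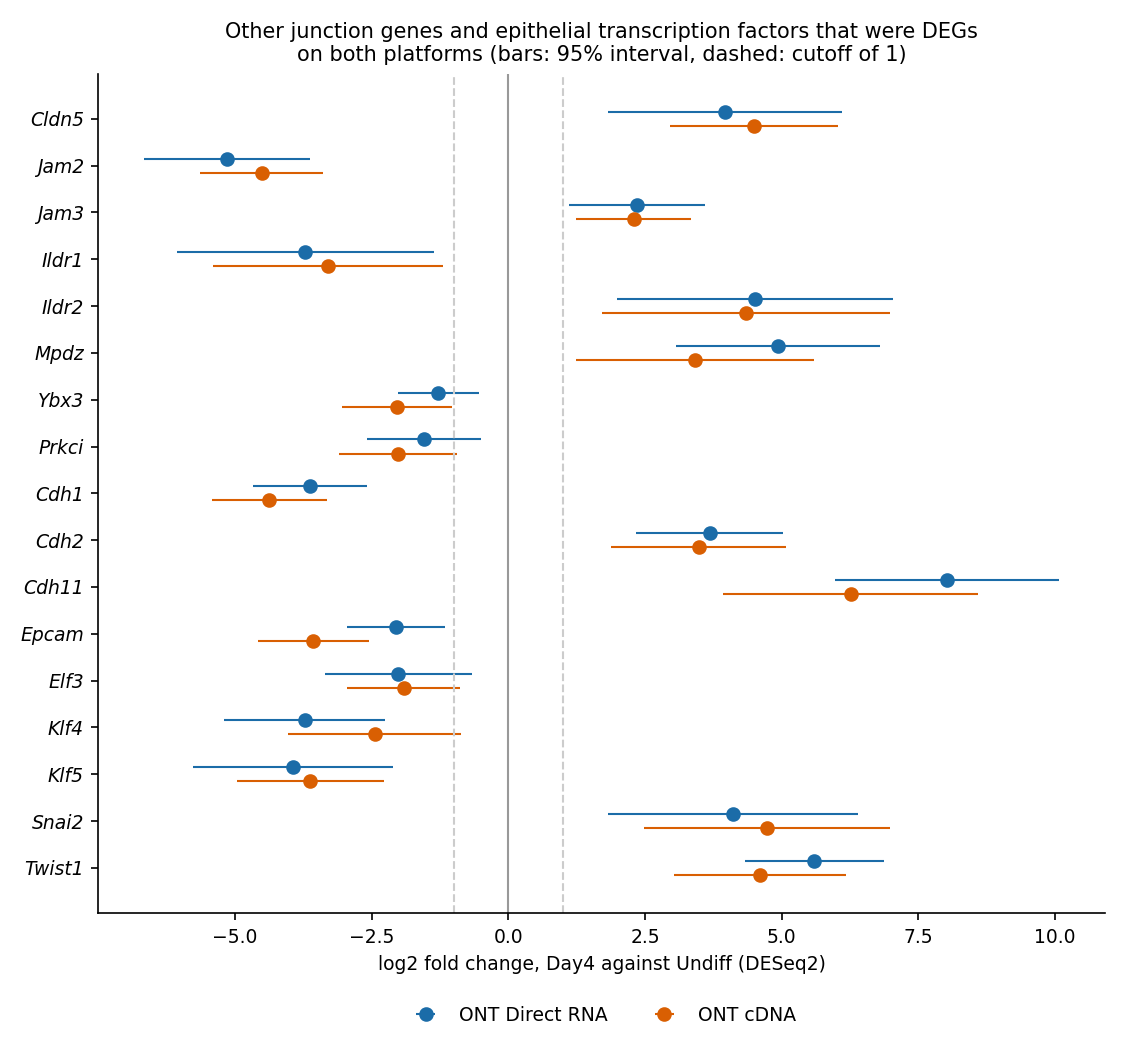
Log2 fold change of Day4 against Undiff from DESeq2 for the 17 further junction genes and epithelial transcription factors that were DEGs on both platforms, in blue for Direct RNA and in orange for cDNA, with 95% intervals and dashed lines at a change of 1 in size. Every gene lies on the same side of 0 with both kits, with 8 genes higher and 9 lower at Day4.

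Markers of other cell types moved beside these genes. The 8 mesenchymal markers summed to 390 to 499 CPM in Direct RNA Undiff and 2591 to 4329 CPM at Day4, and to 78.0 to 103 against 684 to 803 CPM in cDNA, with Col1a2 and Col3a1 at 0 in every Undiff library. The 10 visceral endoderm markers summed to 17.2 to 27.5 against 727 to 1101 CPM and to 12.6 to 13.9 against 297 to 329 CPM, with Gata6, Afp and Ttr at 0 in every Undiff library. Foxa2 and Amn were at 0 in the first Day4 library of each kit, although Amn had reads in every Undiff library and Foxa2 in those of Direct RNA. The 6 markers of simple epithelium had reads in all 8 libraries and summed to 671 to 738 against 836 to 868 CPM in Direct RNA and 564 to 617 against 685 to 837 CPM in cDNA. The sum joins members that moved in opposite directions, since 3 rose and 2 fell in Direct RNA and 2 rose and 2 fell in cDNA, and those that fell were Cdh1 and Epcam. Over all tested genes, 17.2% were called in either direction in Direct RNA and 17.9% in cDNA. The 7 neural markers summed to 161 to 178 against 118 to 152 CPM in Direct RNA and 88.5 to 192 against 621 to 636 CPM in cDNA. That sum, too, joins opposite movements, since Ncam1 rose and Tubb3 fell on both platforms (both named after their values were seen). Of the neural markers at the minimum level, 1 of 3 in Direct RNA and 2 of 4 in cDNA were not called. The median change of the neural markers at that level was 1.99 in Direct RNA and 1.04 in cDNA. The part of these other cell types in the changes of the tight junction genes was not tested.

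The kits were compared in a fit of all 8 libraries that held state constant and did not pair the libraries of a culture. Here 24.7% of tested genes were called higher in cDNA and 26.6% lower, so that 1 higher and 3 lower of the 7 tight junction genes at the minimum level stand against a background in which about every second gene was called. Tjp1 was read at 66.0 to 95.3 CPM in Direct RNA and at 7.18 to 14.9 CPM in cDNA, a log2 difference of -2.03 ± 0.33 (adjusted p = 8.88e-09, DESeq2). Tjp3 was lower in cDNA by 2.80 ± 0.72 (adjusted p = 0.000435), with 6.78 to 30.9 CPM against 0 to 2.11 CPM. Cldn3 was lower by 1.81 ± 0.72 (adjusted p = 0.0346), with 3.53 to 24.4 CPM against 0.759 to 6.32 CPM. Within each state the cDNA libraries lay below the Direct RNA libraries for these 3 genes. Cldn7 was higher in cDNA by 1.83 ± 0.49 (adjusted p = 0.000970), with 18.7 to 42.0 CPM in Direct RNA and 34.1 to 112 CPM in cDNA.

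F11r was higher in cDNA by 0.76 ± 0.21 (adjusted p = 0.00148, DESeq2), short of the required change of 1. Cldn4 differed by -0.03 ± 0.35 with a 95% interval from -0.71 to 0.65, and Cldn6 by 0.35 ± 0.33 with an interval from -0.30 to 1.00. Cldn9 and Ocln were too rare for a narrower statement than intervals from -0.91 to 2.52 and from -0.70 to 2.63. Levels as CPM are not centred between kits, since the median gene was 0.69 lower in cDNA than in Direct RNA on the log2(CPM + 1) scale and -0.02 in the fit, so the differences here are those of the fit. The call of Cldn3 was lost in 6 of the 8 fits that left out a library, all but those without the first Direct RNA Day4 or the first cDNA Undiff replicate, and its difference ran from -2.45 to -1.03. That of Tjp3 was lost without the second Direct RNA Undiff replicate (-2.41, adjusted p = 0.0215), where its mean count fell below 5. With only genes of at least 10 reads in every library, none of the 4 genes could be fitted.

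The differences between kits stood beside transcript length and overlap. Genes with a longest transcript of up to 1500 bases had a median difference of 1.37 towards cDNA, and 58.4% of them were called higher there. Genes over 5000 bases had a median of -0.66, with 36.8% called lower. Of the called genes, Cldn7, at 1335 bases, Tjp3, at 3024 bases, and Tjp1, at 7049 bases, lay on the same side of 0 as their class medians. Cldn3 did not, at 1259 bases and a difference of -1.81. Tjp3 is just over the class edge of 3000 bases, and the class below that edge had a median of 0.34. Of the genes not called, Cldn6, Cldn9 and F11r lay on the same side as their class medians. Cldn4 (-0.03 against 0.34) and Ocln (0.96 against -0.44) lay on the other side. Cldn3 and Tjp3 belong to the 770 genes whose 3′ ends share exon bases with a gene on the other strand. These had a median of -1.05 with 48.3% called lower. The 8305 genes that share no exon bases with the other strand had 0.07 and 23.9%, and the 1322 that share them elsewhere had -0.15 and 31.5%. Reads that htseq-count could not give to a single gene were 2.16% to 2.33% in Direct RNA, which was counted by strand, and 7.65% to 8.45% in cDNA. The methods do not spell out the strand setting for the cDNA gene counts and state that cDNA reads were counted over exons without regard to strand. The part of length, overlap and counting in the differences of single genes was not tested.

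**Figure D5:**
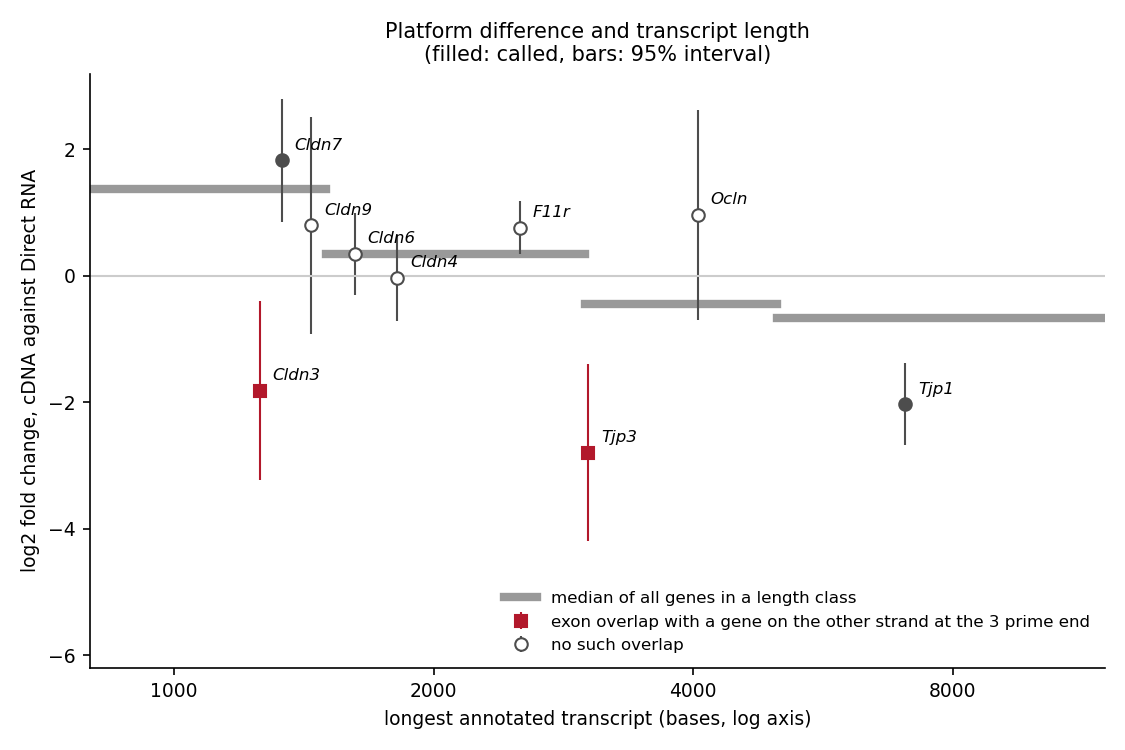
Log2 fold change of cDNA against Direct RNA from DESeq2 for the 9 genes, plotted against the length of the longest annotated transcript in bases on a log axis; bars are 95% intervals, filled symbols were called, red squares share 3′ exon bases with a gene on the other strand, and grey bars are the medians of all genes in 4 length classes, from 1.37 in the shortest to -0.66 in the longest. Of the called genes, Cldn7, Tjp1 and Tjp3 lie on the same side of 0 as the median of their length class and farther from 0, whereas Cldn3 lies on the other side. Of the genes not called, Cldn4 and Ocln lie on the other side too, and Cldn6, Cldn9 and F11r on the same side.

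The other lists were counted between the kits in the same way, against 24.7% of all tested genes called higher in cDNA and 26.6% lower. Of the plaque genes, 10 of 22 were lower in cDNA and 3 higher, with a median of -1.09, and of the adherens junction genes 10 of 13 were lower and none higher, with a median of -1.65. The other membrane proteins of the tight junction had a median of 0.45, with 1 of 8 called higher and none lower. Of the regulators 4 of 11 were lower and none higher, with a median of -0.86, and of the other claudins 1 of 2 was lower.

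Genes whose levels over the 8 libraries were most like those of Cldn6, Tjp1 and Ocln were sought among the 6669 genes that averaged 20 reads or more per library. On the log2(CPM + 1) scale, Cldn6 was most like Ddx3y (r = 0.96), Hars (r = 0.95) and Cldn4 (r = 0.91), and these were the 3 genes above 0.9. Tjp1 was most like Dlg1, Mier2 and Gnpat (r = 0.99 each), but 966 genes exceeded 0.9. Ocln was most like Crb3 (r = 0.89), Tmem231 (r = 0.86) and 1810022K09Rik (r = 0.86). The 8 libraries share 2 states and 2 kits, so that these values describe the libraries and are given without a test.

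Promoters of 8 of the 9 genes, 11 in all, were found in RefSeq (GRCm38.p6), with none for Cldn9. The 250 bases before the start are shown for the genes that were called between the states, Cldn4 and F11r, on the gene's strand. Capitals mark matches, on either strand, to the E-box CAGGTG, the Sp/Klf letters GGGCGG and the nuclear receptor half-site AGGTCA.
Cldn4, chr5:134946935-134947184, minus strand: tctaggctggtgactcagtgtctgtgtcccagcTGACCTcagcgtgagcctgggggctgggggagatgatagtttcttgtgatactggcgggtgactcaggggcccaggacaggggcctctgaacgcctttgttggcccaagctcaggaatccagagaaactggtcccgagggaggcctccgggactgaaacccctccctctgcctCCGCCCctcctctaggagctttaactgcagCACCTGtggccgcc
F11r, chr1:171437311-171437560, plus strand: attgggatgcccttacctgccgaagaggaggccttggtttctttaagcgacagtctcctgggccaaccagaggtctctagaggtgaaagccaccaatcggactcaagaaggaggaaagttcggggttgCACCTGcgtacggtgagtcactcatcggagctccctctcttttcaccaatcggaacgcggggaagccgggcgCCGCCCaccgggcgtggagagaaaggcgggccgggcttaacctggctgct
The Cldn4 window holds 1 match to each of the 3 motifs and the F11r window 1 each to the E-box and the Sp/Klf letters. The GENCODE start of F11r lies within the end of its window. Among all 32851 promoters in RefSeq, 17.2% of such windows hold CAGGTG, 32.7% GGGCGG and 14.0% AGGTCA. Of the 11 windows of these genes, 7 hold CAGGTG, 8 GGGCGG and 5 AGGTCA, and the windows of the 2 Ocln promoters overlap in part. TATAAA and the Grainyhead-like letters AACCGGTT and AACCAGTT are in none of the 11 windows and in 12.4%, 0.116% and 0.654% of all. A match is a run of letters, and binding was not measured.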

How the data were processed

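Polyadenylated RNA of 8 R1 embryonic stem cell libraries (2 states, 2 ONT kits, 2 replicates each) was analysed from the deposited gene tables. The authors aligned reads to mm10 with minimap2 and made whole-number read counts per gene symbol with HTSeq. No normalization had been applied. Groups and replicate numbers come from the labels. Rows that name no gene entered no test. The 9 genes and all gene lists were chosen with earlier results of these data known. CPM are reads per 1000000 reads on genes.

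Day4 was tested against Undiff on each platform with DESeq2 1.42.0 in R 4.3.3 (Wald test, shrunken log2 fold changes, Cook's cutoff and independent filtering off), after the study's methods. DEGs were genes with a mean normalised count of 5 or more, a log2 change of 1 or more in either direction and a p-value, adjusted over all genes after Benjamini and Hochberg, no higher than 0.05. The platform was tested with these thresholds in a fit of 8 libraries that held state constant, and the interaction over 8 libraries without shrinkage by its adjusted p-value. The shares of genes called are of genes with a mean of at least 5, or of all genes fitted for the interaction. Alternatives were edgeR 4.0.16 (quasi-likelihood, TMM), TMM factors in DESeq2, a minimum of 10 reads, no shrinkage, filtering on, a replicate block and each library left out. The fits were tested on simulated data. Replicates differed by more than sampling noise (chi-square per degree of freedom 2.68 to 14.9) and were kept apart. Intervals for shares are Wilson intervals at 95%. The text names the 9 genes, the genes of 5 further junction lists that were DEGs on both platforms, and the 3 genes most like Cldn6, Tjp1 and Ocln. Markers are given as sums, and some are also named singly, such as those at 0. Cldn11, Cldn12, Lsr and Cgn are named besides. GENCODE vM21 matched 24055 of 24421 symbols, 679 of them through a RefSeq synonym. The platform comparison by length and overlap used the genes with a match. Sequences were read from GENCODE transcripts and RefSeq promoters with Python 3.11.15. The annotation is not the one the authors counted with, so lengths and overlaps are those of GENCODE.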

Additional observations from a re-analysis of the deposited data

How the results depend on the processing

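With 2 libraries per group and few reads on most of the 9 genes, each call between states within this set was lost without any 1 library of its platform, while the platform calls of Tjp1 and Cldn7 were kept without any 1 library. Of the 9 genes, 2 were called between states in Direct RNA, 1 in cDNA, 4 between platforms and 0 by the interaction. The count in Direct RNA became 0 with a replicate block and 0 (lowest 0, highest 0) when any library was left out, where the lone library of a group is assumed to vary like the others. In cDNA it became 2 with edgeR, remained 1 with the replicate block and was 0 without any 1 library. Of the 17 further genes called on both platforms, the block ended 7 calls in Direct RNA (Jam3, Ildr1, Ildr2, Prkci, Cdh11, Elf3 and Snai2) and 4 in cDNA (Ildr1, Ildr2, Mpdz and Klf4), and the Direct RNA change of Cdh11 became 1.67 (adjusted p = 0.832). The replicate numbers pair the samples by label only: deviations of same-numbered libraries correlated at 0.21 in Direct RNA, 0.50 in cDNA, 0.12 across kits in Undiff and -0.42 across kits at Day4, over 1395 genes. With the Day4 numbers crossed between kits, chosen after seeing the data, the platform count was 3 and the interaction count 0. Between platforms the count was 0 with at least 10 reads in every library, and between 2 and 4 without any 1 library. Over all genes, 1660 were called in Direct RNA, against 3257 with edgeR, 723 with at least 10 reads, 843 with the replicate block and 393 to 797 without any 1 library. In cDNA 1842 were called, against 3348 with edgeR, 989 with at least 10 reads, 1375 with the replicate block and 709 to 1020 without any 1 library. The interaction was called for 2 genes, against 14 with edgeR and 0 to 13 without any 1 library, and the platform for 5344, against 1674 with at least 10 reads. Directions that reversed were all of values that were not called. Without any 1 library, the change in Direct RNA ran from -1.45 to 0.44 for Cldn3 and from -0.13 to 0.28 for Tjp1, and in cDNA from -1.56 to 0.13 for Cldn7 and from -0.77 to 0.11 for Cldn9. The interaction ran from -2.52 to 0.49 for Cldn3, from -0.64 to 0.73 for Cldn4, from -1.02 to 0.15 for Cldn6, from -0.51 to 1.95 for Cldn9, from -1.85 to 1.23 for Tjp3 and from -2.36 to 1.29 for Ocln. The platform difference of Cldn4 was 0.029 with edgeR, 0.036 with TMM factors and -0.33 to 0.17 without any 1 library, and that of Cldn6 was -0.038 with at least 10 reads. The summed CPM of the 9 genes depends on the library size: it was 492, 535, 344 and 489 in Direct RNA Undiff, Direct RNA Day4, cDNA Undiff and cDNA Day4, and 393, 384, 502 and 591 with TMM effective library sizes. This turns the order of the kits and, within Direct RNA, that of the states. The cause of these shifts was not tested.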

Other observations

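Cgn, encoding the plaque protein cingulin and chosen after its values were seen, had 6 and 32 reads in Direct RNA Undiff and 589 and 617 in cDNA Undiff, and 1 and 5 against 73 and 342 reads at Day4. Its platform difference was 4.71 ± 0.47 on the log2 scale (adjusted p = 4.81e-22, DESeq2), and its change with state was -2.05 ± 1.02 in Direct RNA, which was not called, and -2.39 ± 0.51 in cDNA (adjusted p = 0.000110).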
